A study of Mus musculus with 28 samples.

Results

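The regions described here lay in H3K9me2 domains of mouse embryonic stem cells (mESCs) and of 2-cell-like cells (2CLCs) under control conditions and in no domain of either cell state after depletion of EHMT2. They were chosen by the domain calls themselves. Bases of chromosomes 1 to 19 that were in the DMSO domains of both cell states and in the dTAG domains of neither were joined into runs, segments under 1 kb apart were merged, and runs of at least 50 kb were kept. This gave 776 regions with 78.1 Mb in all. The 4 domain sets from which they were cut hold 22791 domains on these chromosomes. The loss of the domain in both cell states is therefore the definition of the regions and not a result, and what is reported below is where they lay, what they contain and what surrounded them.

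H3K9me2 was profiled by ULI-NChIP, which immunoprecipitates native chromatin from small numbers of cells, in BL6/129 hybrid mESCs in serum and LIF, derived by the study's methods from KH2 cells of a C57BL/6J x 129S1 F1 cross. Every group compared here carried the same alleles. The endogenous Ehmt2 gene encoded the degron tag dTAG and an mCherry reporter, so that the degrader dTAG-13 removes the EHMT2 protein, and a MERVL-GFP transgene marked 2CLCs. Cells were kept for 72 h in DMSO, the solvent control, or in dTAG-13, and cells without GFP (mESCs) were then separated by sorting from cells with GFP (2CLCs). Each of the 4 sorted conditions had 3 immunoprecipitation and 3 input libraries, all from 1 clone, of 28 libraries in the series. TTNBP, an agonist of retinoic acid receptors, was added as well. The labels limit it to 2 of the replicates without saying which, whereas the study's methods state no such limit, so it is not known whether any sorted library was free of it. 2CLCs are told apart from mESCs by the reporter alone, and the domain lists hold nothing by which the cell type can be checked.

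Each condition is represented by a single list of domain positions on a grid of 5 kb, with no value for any single library. Depth is unknown, no difference could be compared with the spread between cultures, and no test was made anywhere below. The lists hold no level of the mark, so sequence in a domain before and after depletion need not have kept its level. Another list, of which the name gives neither cell state nor treatment, was not used to choose the regions and is called the unnamed set.

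H3K9me2 is a mark of repressed chromatin that the methyltransferases EHMT2 (G9a) and EHMT1 (GLP) place together. It covers long stretches of the genome, mostly outside active genes, and EHMT2 represses germline and early embryonic genes in mESCs. 2CLCs are a rare and transient state of mESC cultures in which genes and endogenous retroviruses of the 2-cell embryo are transcribed.

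The start of a protein-coding gene lay in 88 of the 776 regions, and the promoters there were mostly poor in CG dinucleotides. The sequences shown are the 250 bases before the RefSeq start of 6 such genes from the gene groups examined below. They are from GRCm38.p6, 5′ to 3′ on the strand of the gene, with each CG dinucleotide in capitals. Each window lay in full inside 1 of the regions. Astn1 (chr1:158362054-158362303, plus strand) encodes a neuronal adhesion protein of migrating neurons, Tnr (chr1:159523519-159523768, plus strand) the matrix protein tenascin-R, Nrxn3 (chr12:88794254-88794503, plus strand) a presynaptic neurexin, Atoh1 (chr6:64728875-64729124, plus strand) a transcription factor of hair cells and cerebellar granule neurons, Lrrtm1 (chr6:77242227-77242476, plus strand) a synaptic leucine-rich repeat protein and Olfr420 (chr1:174158472-174158721, plus strand) an olfactory receptor.
Astn1: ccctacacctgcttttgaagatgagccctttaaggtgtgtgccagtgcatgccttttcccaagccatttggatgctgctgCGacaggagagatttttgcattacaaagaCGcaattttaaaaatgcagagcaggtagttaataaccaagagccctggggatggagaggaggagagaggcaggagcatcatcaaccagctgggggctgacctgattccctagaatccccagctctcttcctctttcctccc
Tnr: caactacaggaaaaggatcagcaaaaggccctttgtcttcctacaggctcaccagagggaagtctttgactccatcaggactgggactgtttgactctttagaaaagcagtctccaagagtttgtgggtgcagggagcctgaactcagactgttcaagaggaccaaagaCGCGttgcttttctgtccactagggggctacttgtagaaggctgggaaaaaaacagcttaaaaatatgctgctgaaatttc
Nrxn3: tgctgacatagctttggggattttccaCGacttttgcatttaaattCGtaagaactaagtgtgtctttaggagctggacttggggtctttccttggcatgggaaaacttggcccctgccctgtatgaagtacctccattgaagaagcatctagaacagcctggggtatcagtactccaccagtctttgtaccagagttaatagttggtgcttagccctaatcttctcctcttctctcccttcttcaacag
Atoh1: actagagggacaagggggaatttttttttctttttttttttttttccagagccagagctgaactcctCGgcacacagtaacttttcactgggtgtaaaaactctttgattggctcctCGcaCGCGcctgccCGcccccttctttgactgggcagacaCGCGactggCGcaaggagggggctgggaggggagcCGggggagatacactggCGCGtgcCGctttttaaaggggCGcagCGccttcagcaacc
Lrrtm1: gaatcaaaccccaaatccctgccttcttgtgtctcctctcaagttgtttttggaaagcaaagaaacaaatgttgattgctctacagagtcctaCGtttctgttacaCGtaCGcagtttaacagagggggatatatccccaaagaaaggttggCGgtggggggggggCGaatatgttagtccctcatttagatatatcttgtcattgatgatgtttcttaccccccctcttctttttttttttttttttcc
Olfr420: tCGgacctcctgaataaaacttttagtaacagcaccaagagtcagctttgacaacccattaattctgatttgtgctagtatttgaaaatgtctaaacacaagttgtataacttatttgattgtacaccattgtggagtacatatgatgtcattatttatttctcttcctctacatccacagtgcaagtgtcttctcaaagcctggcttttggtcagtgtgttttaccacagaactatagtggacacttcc

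Of these windows, that of Atoh1 held 14 CG dinucleotides, that of Lrrtm1 held 5, those of Astn1, Tnr and Nrxn3 held 2 each, and that of Olfr420 held 1. CG reads the same on both strands, so the count holds for both. The window of Atoh1 thus stood apart from the others. Over all the regions but a pair of highly repeated ones described below, 76 genes with their start in a region had a RefSeq window, with a median of 3 CG dinucleotides (quartiles 2 and 7). The median was 11 over all 15704 promoters, 1 over the 2212 promoters of genes whose start lay in all 4 sorted sets, and 14 over the 10660 with the start in none of them. At least 10 CG dinucleotides stood in 22.4% of the promoters in regions, in 7.14% of those in all 4 sets and in 53.5% of all promoters. Chemosensory receptor genes gave 1216 of the 2998 GENCODE starts in all 4 sets. The CG counts were not split by gene family, and the part of this family in the low counts there was not tested. The RefSeq start used for Nrxn3 was 71628 bp downstream of the GENCODE start of the gene and that of Olfr420 was 3089 bp downstream. The windows of these genes therefore lay inside the GENCODE span and not before it, so their CG counts are not those of the GENCODE promoter. Both starts of each gene lay in the same region. For the other genes behind the medians, the distance between RefSeq and GENCODE starts is not given here. Windows of this kind may be among them.

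The regions were the wide end of a steep distribution. In all, 3193 runs of any width were lost in both cell states, with 116 Mb, and 943 of them were 1 bin of 5 kb. The 776 that were kept made up 24.3% of the runs and 67.2% of their bases. Their widths ran from 50 to 1780 kb with a median of 80 kb and quartiles of 60 and 115 kb. There were 274 of at least 100 kb and 41 of at least 200 kb. Just inside the limit stood 71 regions of 10 bins and 79 of 11 bins, and just outside it 102 runs of 9 bins and 6 runs of 10 bins whose coordinates fell a few bases short of 50 kb. The 150 regions just inside had a median GC content of 40.8% and a median soft-masked share of 24.7%, and the 108 runs just outside had 40.9% and 24.96%. Soft-masked bases are those in lower case in the assembly sequence, which marks repeats in this way. By what method they were marked is not given in the sources used here.

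**Figure D1:**
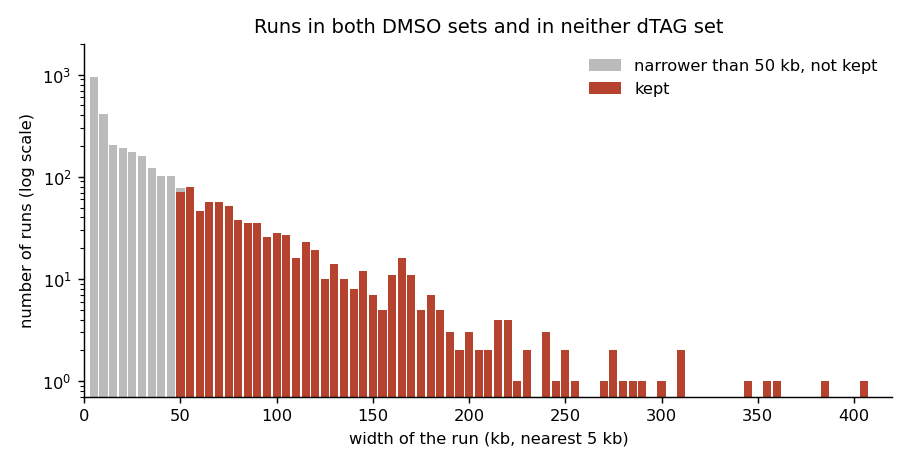
Number of runs (log scale) against their width in kb, to the nearest 5 kb, for runs in both DMSO sets and in neither dTAG set on chromosomes 1 to 19. Grey bars are runs narrower than 50 kb and red bars the 776 regions that were kept; the counts fall from 943 runs of 1 bin to 71 kept regions of 10 bins, and the regions of 740 and 1780 kb lie beyond the axis.

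The regions were taken from a small part of the shared domain landscape. Bases in both DMSO sets came to 1138 Mb, of which 77.3% were in both dTAG sets as well, 6.84% were lost in mESCs only, 5.62% in 2CLCs only and 10.2% in both. The regions held 6.87% of these bases. Every chromosome had at least 25 regions, and chromosome 2 had the most with 72. As a share of the bases in both DMSO sets, the regions ranged from 3.58% on chromosome 5 to 12.4% on chromosome 19, with a median of 6.84% over chromosomes. Chromosomes 11 (10.9%), 18 (10.6%) and 2 (9.67%) followed chromosome 19, and chromosomes 6 (4.04%) and 4 (4.56%) stood next to chromosome 5 at the low end. Chromosome 14, which carries the widest regions, had 8.09%.

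**Figure D2:**
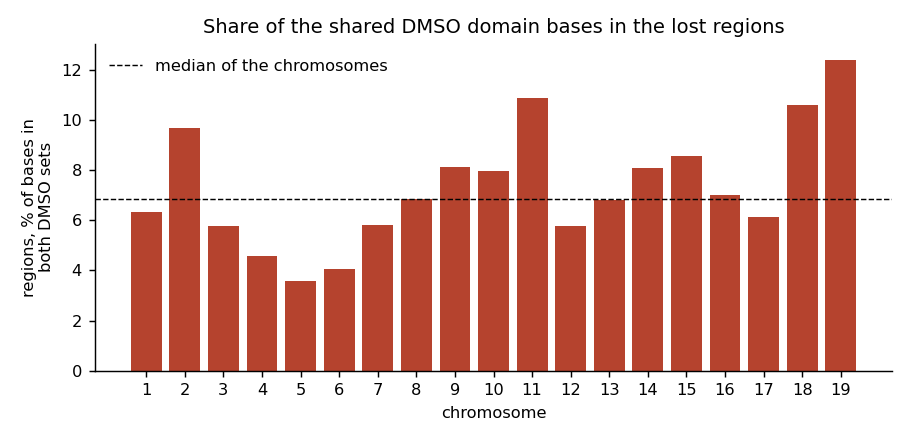
Share of the bases in both DMSO sets that lay in the regions, in percent, for chromosomes 1 to 19, with the median of the chromosomes (6.84%) as a dashed line. The bars run from 3.58% on chromosome 5 to 12.4% on chromosome 19; each bar is a single value with no replicate.

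Most regions were a piece of a wider control domain. Each was put in a class by what was left of its DMSO domain in the dTAG set of the same cell state. Any dTAG domain that overlapped the DMSO domain was counted, whatever its width or its distance from the region. Of the 22791 domains in the 4 sets, each DMSO set holds 3870, so most are dTAG domains. The classes therefore do not mean that the rest of the DMSO domain stayed intact. In mESCs, 407 of 776 regions (52.4%, Wilson 95% interval 48.9 to 55.9) stood at an end of their domain, with dTAG domains left on 1 side. A further 243 (31.3%, 28.2 to 34.7) stood between dTAG domains left on both sides, and 126 (16.2%, 13.8 to 19.0) lay in a DMSO domain with no dTAG domain left on either side of the region. In 2CLCs the counts were 433 (55.8%, 52.3 to 59.3), 201 (25.9%, 22.9 to 29.1) and 142 (18.3%, 15.7 to 21.2). These intervals cover counting error over regions only. They treat regions as independent, although 283 regions in mESCs and 208 in 2CLCs shared their DMSO domain with another region. The class was the same in both cell states for 464 regions, of which 276 stood at an end, 122 between and 66 in a domain that vanished whole. When only domains of at least 50 kb were used in each set, the share in domains that vanished whole was 33.0% in mESCs and 35.3% in 2CLCs.

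The domains around these classes differed in size. In mESCs the median DMSO domain was 148 kb where it vanished whole, 385 kb where the region stood at an end and 665 kb where it stood between dTAG domains. The median region filled 78.0%, 23.6% and 13.4% of these domains. In 2CLCs the medians were 110, 330 and 550 kb, and the regions filled 100%, 30.9% and 14.6%. The regions themselves were of like width in the 3 classes, with medians from 80 to 90 kb in both cell states. The 776 regions came from 620 mESC and 664 2CLC domains of the 3870 that each DMSO set holds on these chromosomes. In mESCs, 127 of the domains held more than 1 region, and in 2CLCs 96 did, with at most 5 regions in 1 domain in each. The region was the whole domain in 40 cases in mESCs and in 77 in 2CLCs.

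At their 1552 edges, the regions ended about as often by the start of a dTAG domain as by the end of a DMSO domain. At 2.5 kb outside the edge, both DMSO domains went on and a dTAG domain had begun at 797 edges (51.4%). Of these, 379 had a dTAG domain of 2CLCs only, 297 of mESCs only and 121 of both. At 733 edges (47.2%) a DMSO domain had ended with no dTAG domain there, that of 2CLCs alone at 377, that of mESCs alone at 245 and both at 111. The remaining 22 edges were of other kinds. The rule sets that some set changes at each edge, but not which one.

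Domain coverage was also followed farther out. At 32.5 kb outside the edge, 84.4% of the edges were in a DMSO domain of mESCs and 76.0% in one of 2CLCs, while 45.4% were in a dTAG domain of mESCs and 50.3% in one of 2CLCs. At 297.5 kb these shares were 69.0%, 63.4%, 44.0% and 47.7%. Over chromosomes 1 to 19 as a whole, the sets covered 52.4% (mESC DMSO), 49.7% (2CLC DMSO), 44.6% (mESC dTAG) and 46.7% (2CLC dTAG) of the sequence. The regions were cut from wide DMSO domains (median 412.5 kb for mESCs, 320 kb for 2CLCs), so the rule itself raises the DMSO shares beside their edges, and nothing is read from them. A dTAG domain lay within 50 kb of an edge for 643 regions (82.9%) in mESCs and for 684 (88.1%) in 2CLCs, and on both sides for 261 and 310. It lay so near in both cell states for 603 regions (77.7%). No such share was taken for other runs or for positions at large. With dTAG domains over 44.6% and 46.7% of these chromosomes, this nearness is not read as a trait of the regions. The region farthest from any dTAG domain had 870 kb to the nearest in mESCs, and the corresponding distance in 2CLCs was 450 kb.

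**Figure D3:**
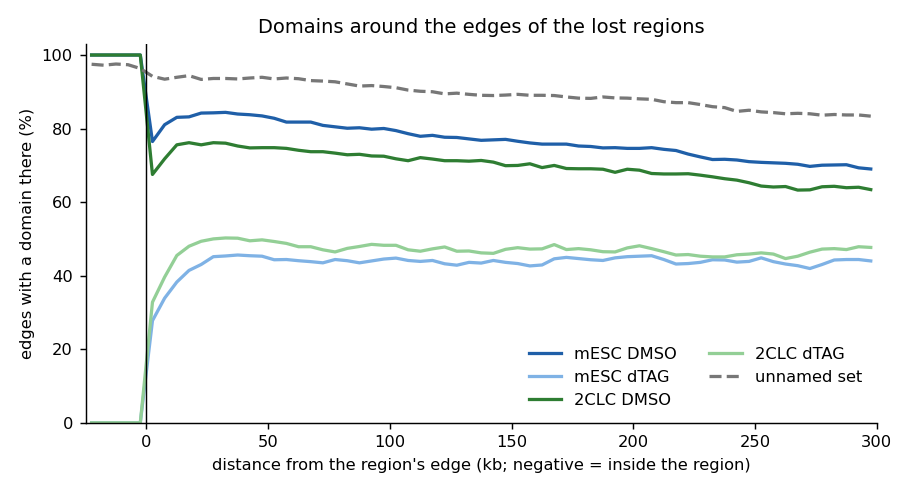
Percent of the 1552 region edges with a domain of each set at a given distance, in steps of 5 kb, with negative distances inside the region. Inside, both DMSO sets are at 100% and both dTAG sets at 0% by the rule; outside, DMSO domains cover 76.5% (mESC) and 67.5% (2CLC) of edges at 2.5 kb, dTAG domains 27.8% and 32.8%, and the unnamed set is still at 83.4% at 297.5 kb.

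The unnamed set, which had no part in the rule, covered nearly all of the regions. It held 97.6% of their bases, and 665 of the 776 regions lay in it whole. Only 6 regions had no base in it. Its share was 94.2% in runs of at least 50 kb kept in all 4 sorted sets, 95.4% in runs lost in mESCs only, 93.3% in runs lost in 2CLCs only and 23.0% in runs in no sorted set. It covers 63.3% of chromosomes 1 to 19. By this set the regions were as fully in H3K9me2 domains as the runs that were kept, and apart from the runs in no set. What condition it stands for is not given in the sources used here, so it is no second measurement of either treatment. The series also holds 2 immunoprecipitation and 2 input libraries of bulk mESCs kept for 24 h in DMSO. The study describes domain calls from bulk mESC cultures, and whether the unnamed set is that call is not stated. If it is, high coverage of regions taken from DMSO domains says little.

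The regions differed from the domains that were kept in how much repeated sequence they held. The median soft-masked share was 24.7% (quartiles 21.2 and 28.5) in the regions and 41.4% (35.1 and 47.5) in the 3750 runs kept in all 4 sets, so the middle parts of these distributions did not overlap. Runs lost in 1 cell state only stood between, with 28.6% in 424 runs lost in mESCs only and 27.8% in 314 runs lost in 2CLCs only. In the 3036 runs in no sorted set the median was 24.8%. A second measure of repeats gave the same order for the domain classes. The median share of 50-mers that occur more than once on the same strand of their chromosome was 2.09% in the regions, 9.97% in kept runs, 3.05% in runs lost in mESCs only, 2.65% in runs lost in 2CLCs only and 1.88% in runs in no set. By the study's methods, reads with several matches went to their best match, in random order where matches were equally good. Domain calls in such sequence rest partly on that placement. Its part in the difference was not tested.

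In base composition the regions lay nearer to the other domains. Their median GC content was 40.6% (quartiles 39.2 and 42.0), against 39.1% in kept runs, 39.9% and 39.0% in runs lost in mESCs only and in 2CLCs only, and 44.3% in runs in no set. The density of CG dinucleotides had medians of 6.64 per kb in the regions, 5.78 in kept runs and 10.8 in runs in no set. Within the regions, GC content and soft-masked share varied little with context. The 66 regions in domains that vanished whole in both cell states had medians of 41.1% GC and 22.5% soft-masked sequence, the 276 at an end in both had 40.8% and 24.7%, and the 122 between dTAG domains in both had 39.8% and 25.4%.

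**Figure D4:**
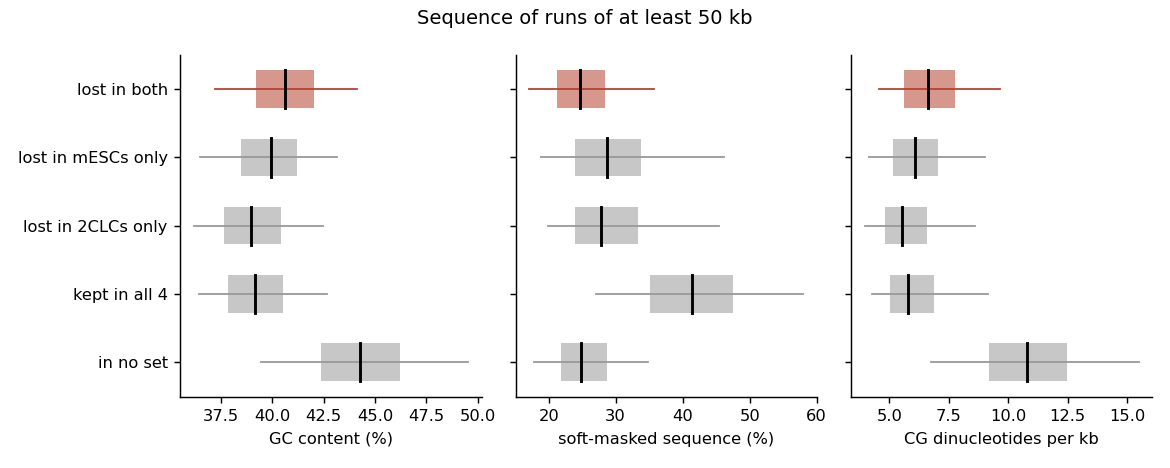
GC content, soft-masked share and CG dinucleotides per kb of runs of at least 50 kb in 5 classes of domain state; the black line is the median, the box the quartiles and the thin line the span from the 5th to the 95th percentile over runs. The 776 regions lost in both (red, top row) have a median soft-masked share of 24.7%, below the 41.4% of the 3750 runs kept in all 4 sets and close to the 24.8% of the 3036 runs in no set, while their GC content of 40.6% is nearer to the 39.1% of kept runs than to the 44.3% of runs in no set.

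The regions held fewer gene starts per Mb and more intronic sequence than kept runs. They held 162 starts of protein-coding genes, 2.07 per Mb, against 3.45 per Mb in kept runs, 3.01 and 1.69 per Mb in runs lost in mESCs only and 2CLCs only, and 14.4 per Mb in runs in no set. Clustered chemosensory receptor genes weigh on the density of kept runs. At any run width, they gave 1216 of the 2998 starts in all 4 sets, but 27 of the 333 in both DMSO sets and neither dTAG set. The densities were not corrected for this family, so no general lack of gene starts is read from them. Of the bases of the regions, 42.1% were intronic, 1.36% exonic and 56.5% outside protein-coding genes. The intronic share was close to this in runs lost in 2CLCs only (41.5%) and was 33.5% in runs lost in mESCs only. In kept runs 16.2% of bases were intronic and 82.6% outside genes, and in runs in no set 52.9% and 40.2%. Among the 776 regions, 88 held a protein-coding start, 262 had no start and lay inside a gene from end to end, 66 were partly in a gene without its start, and 360 had no base in a protein-coding gene. The starts were unevenly spread. A single start stood in 72 regions and more than 1 in 16, and 52 of the 162 starts were in the 2 widest regions.

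These 2 regions, both on chromosome 14, differed from all others in sequence. The widest, chr14:41326092-43106089, was 1780 kb wide, with repeated 50-mers over 87.6% of its sequence, and held 37 starts, the most of any region. The other, chr14:7001138-7741136, was 740 kb wide, with 82.7% repeated 50-mers and 15 starts. All 52 starts were of predicted genes, 49 with symbols beginning with Gm and 3 RIKEN genes. The highest share of repeated 50-mers in any other region was 29.3%. The widest region stood between dTAG domains in both cell states, in a DMSO domain that measured 2665 kb in mESCs and in one of 2585 kb in 2CLCs. Reads from near-identical copies cannot be told apart, and these 2 regions are uncertain for that reason. Without them, 110 starts remained in 774 regions, 1.45 per Mb, and the median soft-masked share was unchanged at 24.7%.

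The other 8 of the 10 widest regions held little repeated sequence, with 1.10 to 2.38% repeated 50-mers and 17.5 to 25.5% soft-masked bases, and no protein-coding start. The third widest, chr8:115872855-116277854, was 405 kb wide and lay 165 kb from Maf, a leucine zipper transcription factor, and 227 kb from Dynlrb2, a dynein light chain gene. It held no protein-coding base. In mESCs it was part of a DMSO domain of 720 kb and in 2CLCs of one of 565 kb that ended with the region. In both cell states dTAG domains were left on 1 side only.

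The region chr9:28646586-29031585, 385 kb wide, lay where the genes Opcml and Ntm end tail to tail. Both encode cell adhesion molecules of the IgLON family, which neurons carry on their surface. Opcml covered 72.4% of the region and Ntm 9.57%. The DMSO domain was 665 kb in mESCs and 455 kb in 2CLCs. No dTAG domain lay within 600 kb on either side in mESCs, where the nearest were 620 kb and 655 kb away. In 2CLCs one stood 45 kb away on the right and the nearest on the left was 580 kb away.

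The region chr11:36864785-37224784, 360 kb wide, lay within the teneurin gene Tenm2, a synaptic adhesion molecule. In mESCs it was a complete DMSO domain, and in 2CLCs it filled most of a domain of 545 kb. In mESCs dTAG domains stood 40 kb to the left and 15 kb to the right, and in 2CLCs 495 kb to the left and 15 kb to the right. The unnamed set covered 91.7% of it, the only one of the 10 widest not in that set whole. The region chr2:141127790-141482789, 355 kb, lay in Macrod2, an ADP-ribose hydrolase gene, with 99.92% of its bases in introns, and stood between dTAG domains in both cell states.

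**Figure D5:**
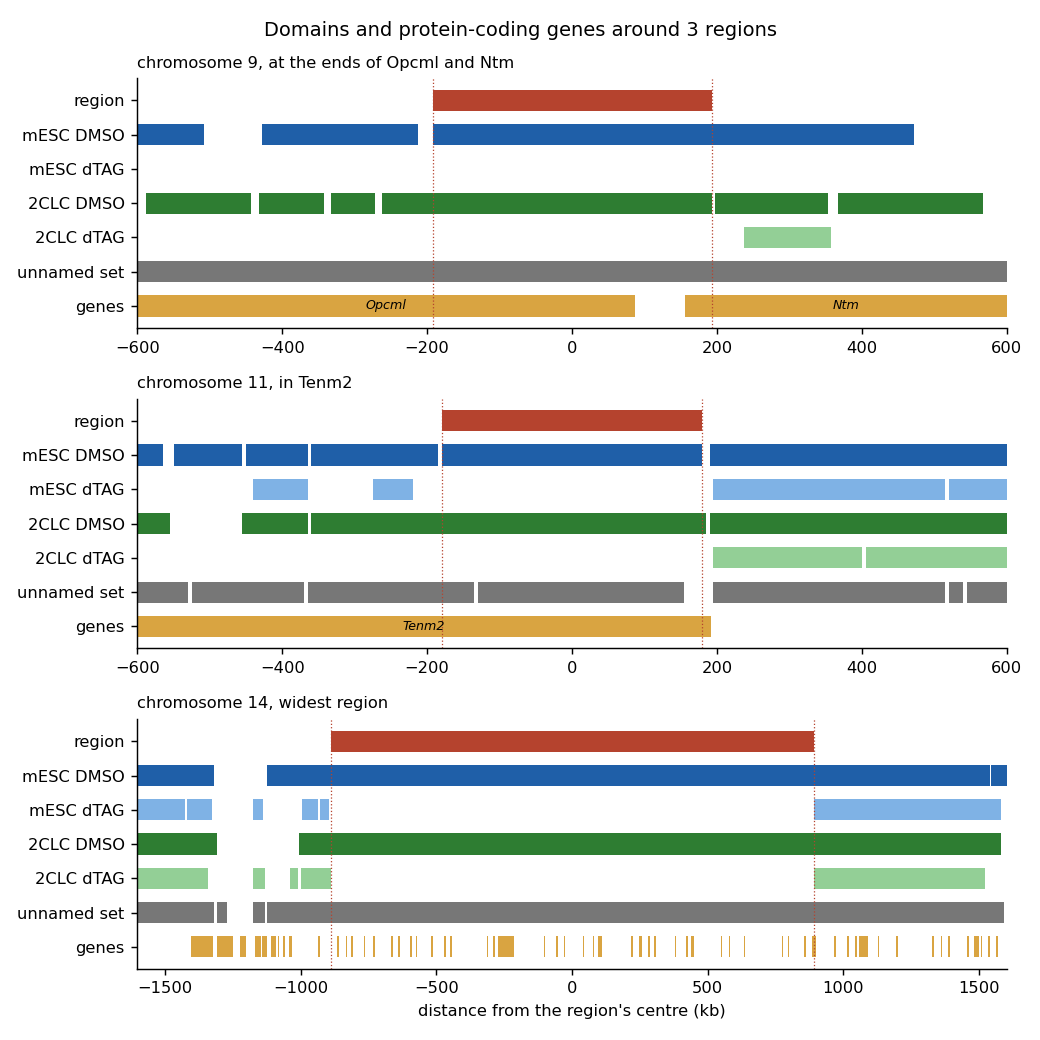
Domains of the 5 sets and protein-coding genes around 3 regions, against the distance from the centre of the region in kb; the red bar and the dotted lines mark the region. The region of 385 kb at the ends of Opcml and Ntm has no mESC dTAG domain within 600 kb of its centre, the region of 360 kb in Tenm2 has dTAG domains 15 kb to its right in both cell states, and the region of 1780 kb on chromosome 14 stands between dTAG domains in both.

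The remaining 4 of the widest were on chromosomes 7, 9 and 13. The region chr7:95554535-95899534, 345 kb, lay 272 kb from Tenm4, another teneurin gene, and held no protein-coding base. The region chr9:15901603-16211602, 310 kb, lay in Fat3, an atypical cadherin of developing neurons, over 97.2% of its width, and was at an end of its domain in both cell states. The region chr13:110627800-110937798, 310 kb, lay 227 kb from the kinase gene Plk2 and 317 kb from Actbl2. The region chr13:71502852-71802850, 300 kb, lay 155 kb from Irx1, a homeobox gene, and held no protein-coding base.

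Long genes held many of the regions. A gene was counted when its span held a region from end to end, which was so for 194 of 20807 protein-coding genes, or 0.932%. Their median span was 407 kb against 17.6 kb over all genes. A gene shorter than a region cannot hold it, so the share was also taken among genes of at least 200 kb, of which 169 of 953 held a region, or 17.7%. In all, 50 genes held 2 or more regions and 6 held 4 or more. Of the 6, those named here were picked after their values were seen. Dlg2, a scaffold of the postsynaptic density, held 5 regions of 50 to 240 kb, and Opcml held 5 of 50 to 165 kb.

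Nrg1, a ligand of ERBB receptors, held 4 regions that made up 36.0% of its span, Lama2, a laminin chain of muscle and nerve, 4 with 32.05%, and Lsamp, another IgLON, 4 with 15.5%. The starts of these genes were not alike in domain state. The start of Dlg2 lay in no sorted set, that of Nrg1 in the mESC DMSO set only and that of Lama2 in all 4. The start of Opcml lay in both DMSO sets and the 2CLC dTAG set, and that of Lsamp in every set but mESC DMSO. Over the 194 genes, 46 starts (23.7%) lay in no sorted set, 21 (10.8%) in all 4 and 20 (10.3%) in both DMSO sets alone.

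By gene group, genes of neuronal adhesion and guidance of at least 200 kb held regions in 22 of 60 cases (36.7%), beside 17.7% of all genes of that length. For ion channels the count was 11 of 31 (35.5%), for neurotransmitter receptors 6 of 22 (27.3%), for cadherins outside the clusters 3 of 13 (23.1%), for signalling ligands and receptors 5 of 12 (41.7%), for extracellular matrix proteins and collagens 5 of 12 (41.7%), for developmental transcription factors 2 of 19 (10.5%) and for zinc finger genes 0 of 8. Genes in such a list differ in length above the limit, and these shares were not corrected for it. The long genes that held a region had a median span of 485 kb, and all genes of at least 200 kb had 327 kb.

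Starts inside the regions were few in each group. Of 3830 protein-coding starts that lay in both DMSO sets, 333 (8.69%) were in neither dTAG set, whether or not the run reached 50 kb. The same calls chose the regions, and no more is read from these counts than where the genes lay. Of 36 starts of neuronal adhesion and guidance genes in both DMSO sets, 8 were in neither dTAG set. Those of Astn1, Tnr, Robo1, a receptor of the guidance cue SLIT, Nrxn3 and Lrrtm1 lay in regions of 275, 220, 175, 130 and 100 kb. The starts of Fat1, an atypical cadherin, and Kcnv2, a modifying potassium channel subunit, lay in regions of 90 and 105 kb. Of the developmental transcription factors, Atoh1 and Neurod6, both basic helix-loop-helix factors of neurons, had their starts in regions of 115 and 65 kb. The collagen genes Col22a1 and Col24a1 started in regions of 85 kb each, and Zfp474, a zinc finger gene, in one of 60 kb.

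Of all 3830 protein-coding starts in both DMSO sets, 2998 (78.3%) were in all 4 sets. Of the 36 of neuronal adhesion and guidance genes, 20 were. Of 1327 starts of chemosensory receptor genes in both DMSO sets, 1216 were in all 4 sets and 27 (2.03%) in neither dTAG set, of which 12 lay in regions, among them Olfr231 and Olfr420 in one region of 95 kb on chromosome 1. Of 51 zinc finger starts, 47 were in all 4 sets and 2 in neither dTAG set. Of 38 starts of 2-cell genes, which are transcribed at zygotic genome activation, 36 were in all 4 sets and 0 in neither dTAG set. Staying in a domain need not mean an unchanged level of the mark. The part of multi-mapping reads in these calls was not tested. For its own clusters of 2CLC genes, which were not compared here, the study proposes that EHMT2 depletion resolves the domains in full. No start of the 21 pluripotency genes lay in both DMSO sets. Of 8 starts of signalling genes, 3 of germline genes and 2 of the H3K9 methylation machinery in both DMSO sets, 0 were in neither dTAG set.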

How the data were processed

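H3K9me2 immunoprecipitation and input libraries of the 4 sorted conditions underlie the domain lists. According to the study's methods and the submitters' processing notes, the authors trimmed the reads and aligned them to mm10 with STAR 2.7.10. Multi-mapping reads were given their best match, in random order among equally good ones. Duplicates (Picard 2.26.0) and artefact regions were removed, and coverage was scaled with deepTools 3.5.1. Domains were called from the log2 ratio of immunoprecipitation to input in 10 kb windows every 5 kb. Whether replicates were pooled, and whether limits were set per condition, was not stated. By the study's methods, a domain began where the ratio was above a high percentile and was extended until it fell below a low one. If the limits were set per condition, losing a domain need not mean a lower level of the mark. Keeping one need not mean an unchanged level either, since the study reports reduced global H3K9me2 in both cell types after depletion. The deposited values are starts and ends of domains, 1 list per condition, with no count, ratio or score. Depth per sample is therefore unknown, and no replicate error or test was possible.

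Set membership was taken per base for chromosomes 1 to 19 (Python 3.11.15, numpy 2.4.6). No domain ran past a chromosome end of GRCm38.p6, from which sequence was read. Genes are from GENCODE M21. A 50-mer was called repeated when it occurred more than once on its chromosome and strand. The functions for runs and repeats were tested on simulated data. The regions named were the 10 widest, that with the most starts and the runs nearest the limit. The genes named were those with their start in, or spanning, 1 of the 10 widest regions and those of 13 lists with their start in a region (at most 8 a list); genes that only overlap a wide region, or lie nearest to it, were named as well. Promoters were printed for list genes by region width, at most 1 per region and none on chromosome 18. Robo1, whose RefSeq window lies outside its region, and Kcnv2, which has no entry in the table, were passed over. The regions and the gene lists were chosen with earlier results of these data known. The alternatives changed the width limit, the merging gap, the domains used and the chromosomes included. Some genes that the rule or a count would name are not reported here.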

Additional observations from a re-analysis of the deposited data

Results flagged for a closer look

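Chromosome X was left out of the regions, since the authors' coverage scaling ignores it. The same rule applied there gave 19 runs of 50 to 185 kb, with a median of 75 kb and 1.67 Mb in all. They are given here because they lie in data that no comparison above used. The domain sets hold no control by which a background for such runs could be set.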

How the results depend on the processing

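No paired analysis was possible because the domain lists hold no values for single replicates, so no fit with or without a replicate block could be made, and no replicate could be left out. Over all results and settings, 249 of 266 recomputed values stayed within the limits set: 1.5 times for counts and length, the Wilson 95% interval over regions for shares, and 1 SD over regions for medians. Of the 266, 190 left out 1 chromosome each and 76 used other settings, of which 59 stayed within the limits. For median width, 1 SD was 82.9 kb beside a median of 80 kb, so no narrower median could pass that limit. Leaving out each chromosome in turn moved none past the limits, but no chromosome held more than 9.28% of the regions. The number of regions could not change 1.5 times in this way, and staying within the limits is not read as robustness. The number of regions ranged from 704 to 751, their length from 70.5 to 75.8 Mb, the share in mESC domains that vanished whole from 15.5 to 17.0% and in 2CLCs from 17.7 to 18.8%, the share near a dTAG domain in both cell states from 77.1 to 78.3%, the share of bases in the unnamed set from 97.4 to 97.8%, and the gene starts from 108 to 161. The lowest of these, without chromosome 14, is within the limit by the narrowest margin. The median width was 80 kb in each, the median GC content 40.6 to 40.7% and the median soft-masked share 24.6 to 24.8%.

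The width limit moved the counts by its own construction. At 25 kb there were 1435 regions, with 13.7% and 14.7% in domains that vanished whole in mESCs and 2CLCs and 81.0% near a dTAG domain in both. At 100 kb there were 274 regions, with 43.7 Mb, 83 gene starts and 23.0% in 2CLC domains that vanished whole. With only those domains that reach 50 kb, the shares that vanished whole were 33.0% and 35.3%, and 53.0% had a dTAG domain near in both; fewer dTAG domains are counted there. Merging segments under 10 kb apart gave 81.4% near a dTAG domain, and distances of 20 and 100 kb in place of 50 kb gave 59.0% and 89.0%. Counting all annotated genes gave 917 starts, counting protein-coding genes that overlap a region gave 427, and 99.2% of regions had some base in the unnamed set. Some settings were added after the data were seen: counting runs of 10 bins as wide enough gave 782 regions, and leaving out the 2 repeated regions of chromosome 14 gave 110 gene starts. The depth behind the lists is unknown, and what limits the precision is that each condition has 1 list.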

Other observations

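The 6 regions with no base in the unnamed set were 50 to 95 kb wide. They were looked at after their values were seen. Of these, 2 lay in Pcdh9, a protocadherin gene of neurons, 1 in Cadm2, a synaptic adhesion gene, and 1 in Themis, a gene of T cell development, and the remaining 2 in no gene from end to end. One of these, of 55 kb on chromosome 14, held the start of Rnase10, a gene of the ribonuclease A family, and the other held no protein-coding start. The regions of 50 and 85 kb in Pcdh9 are on chromosome 14.

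The widths of the regions did not fall off evenly. There were 7 regions of 150 kb, 5 of 155 kb and 5 of 175 kb, but 11 of 160 kb, 16 of 165 kb and 11 of 170 kb. Regions of these 3 widths were found on most chromosomes. The pattern was noticed in the data, and whether it departs from chance was not tested.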
